A study of Mus musculus with 8 samples.

Results

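The genes described here are 10 genes of MHC class I antigen presentation, taken by symbol from the deposited tables of sorted mouse liver duct cells: B2m, H2-K1, H2-D1, Tap1, Tap2, Tapbp, Psmb8, Psmb9, Psmb10 and Nlrc5. All 10 were found among 20377 gene symbols, and all 10 passed the filter on low counts. The cells came from the livers of wild type C57BL/6 mice and were sorted by flow cytometry from the non-parenchymal fraction (liver cells other than hepatocytes), outside the blood lineages. All of them bound the duct cell antibody MIC1-1C3 and lacked surface CD26. They were divided by surface ST14 (matriptase, a membrane serine protease of epithelia) into ST14high and ST14low, and RNA was taken from the fresh cells, with 4 RNA sequencing libraries of each and 8 in all. The labels give no age and do not tie the libraries to different animals. The p-values therefore reflect the spread between these libraries, part of which may be technical.

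MHC class I molecules show peptides from inside the cell to CD8 T cells and are carried by nearly all nucleated cells. Proteasomes cut proteins into peptides, the TAP transporter pumps the peptides into the endoplasmic reticulum, and tapasin holds an empty class I heavy chain beside TAP until a peptide fits. Interferon raises most of these genes together and swaps the catalytic subunits of the proteasome for the immunoproteasome forms, and NLRC5 drives transcription of the heavy chains, B2m and the peptide-loading genes. Bile duct cells are targets of T cells in several cholangiopathies.

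The promoters of the heavy chains, of B2m and of Tap1 are shown. H2-K1, H2-D1 and Tap1 varied together across the libraries (Pearson r of 0.79 to 0.94), and B2m less so with them (0.19 to 0.49). Whether the promoters bear on this was not tested. RefSeq promoter windows of 300 bases (GRCm38.p6), reaching 250 bases upstream of the start site, were matched for 8 of the 10 genes. Tap2 and Nlrc5 had no entry. Capitals mark matches, on either strand, to the motifs named after the sequences.
H2-K1, chr17:34000298-34000597, minus strand: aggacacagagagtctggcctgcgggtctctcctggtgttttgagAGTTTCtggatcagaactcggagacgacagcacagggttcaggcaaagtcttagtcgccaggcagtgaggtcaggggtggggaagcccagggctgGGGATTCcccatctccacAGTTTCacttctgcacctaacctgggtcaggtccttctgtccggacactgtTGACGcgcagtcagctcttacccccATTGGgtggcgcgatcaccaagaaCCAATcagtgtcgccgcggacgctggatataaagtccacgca
H2-D1, chr17:35262844-35263143, plus strand: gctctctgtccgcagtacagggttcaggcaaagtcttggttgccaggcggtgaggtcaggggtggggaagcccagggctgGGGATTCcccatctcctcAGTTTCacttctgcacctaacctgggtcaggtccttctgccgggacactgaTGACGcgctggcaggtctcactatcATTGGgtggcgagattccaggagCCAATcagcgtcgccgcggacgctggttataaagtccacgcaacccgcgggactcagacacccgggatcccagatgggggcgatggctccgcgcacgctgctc
B2m, chr2:122147437-122147736, plus strand: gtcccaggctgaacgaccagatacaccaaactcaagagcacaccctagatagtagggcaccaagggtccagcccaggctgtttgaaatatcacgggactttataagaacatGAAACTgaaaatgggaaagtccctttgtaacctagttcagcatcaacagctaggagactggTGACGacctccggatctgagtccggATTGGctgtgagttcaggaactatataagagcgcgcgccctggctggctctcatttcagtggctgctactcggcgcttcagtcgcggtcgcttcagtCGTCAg
Tap1, chr17:34187306-34187605, plus strand: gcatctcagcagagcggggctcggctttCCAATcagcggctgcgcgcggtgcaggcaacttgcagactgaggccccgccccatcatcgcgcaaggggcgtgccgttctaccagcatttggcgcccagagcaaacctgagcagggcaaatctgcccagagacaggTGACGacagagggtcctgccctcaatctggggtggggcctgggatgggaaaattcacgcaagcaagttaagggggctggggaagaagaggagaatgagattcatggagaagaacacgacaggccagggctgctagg

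The motifs searched were the core of the kappaB site of class I promoters (GGGATTC), the end of the interferon response element (GAAACT), the CCAAT box (CCAAT) and the core of the X2 box (TGACG), the last 2 belonging to the module through which NLRC5 acts. No motif is a part of another. Of 32851 promoter windows 3.08% held GGGATTC, 15.8% GAAACT, 37.4% CCAAT and 20.8% TGACG. H2-K1 and H2-D1 each held all 4 motifs, with a CCAAT box on each strand, and their windows shared a run of 47 identical bases. In H2-K1 the kappaB core began at position -110 and in H2-D1 at position -170, counted from the RefSeq start site. GAAACT stood beside it on the reverse strand, from position -92 in H2-K1 and -152 in H2-D1, and H2-K1 held it once more at -205. The B2m window held GAAACT at position -139, TGACG at position -78 and CCAAT on the reverse strand at position -53, and TGACG once more at position 45, after the start. The windows of Tap1 and Psmb9, which are transcribed away from each other, overlapped by 275 of 300 bases and held TGACG and CCAAT. The Psmb10 window held none of the 4 motifs, Psmb8 held only GAAACT and Tapbp only CCAAT. These matches describe letters in a window, and no binding was measured.

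In the mouse build mm9 of the deposited tables, 7 of the 10 genes lie on chromosome 17. The coordinates below are printed as the tables give them, and whether they count from 0 or 1 is not stated there. Tapbp (34056422 to 34066235) and H2-K1 (34132956 to 34137278) come first, and H2-D1 (35400038 to 35404442) lies farther along. Between them stand Psmb9 (34319043 to 34324275), Tap1 (34324500 to 34334170), Psmb8 (34335139 to 34338399) and Tap2 (34341423 to 34353266), next to each other in that order. B2m (121973422 to 121978818) is on chromosome 2, and Nlrc5 (96996662 to 97051172) and Psmb10 (108459627 to 108462292) are on chromosome 8. The span of H2-D1 overlaps a gene model on the same strand, LOC547349, which held 16814 counts against 200104 for H2-D1 over the 8 libraries. In GENCODE M21 transcripts 8.79% of the 50-base windows of H2-K1 and 14.3% of those of H2-D1 also occurred in other genes, so their counts could hold or miss reads of other class I chains. For Psmb9 12.5% of windows occurred in Tap1 on either strand. The strand setting of the counting is not given in the sources used here, so reads of the 2 genes cannot be told apart there. The share was largest for Tapbp, at 21.0%, of which most was shared with the gene model Gm19412 (19.0%). It was 12.6% for Tap2, with 9.9% in Gm15821, then 6.47% for Tap1 and 5.83% for Psmb8, and for B2m, Psmb10 and Nlrc5 it was 0%.

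The comparison asks whether duct cells with high and low surface ST14 differ in class I presentation. All 10 genes had a log2 fold change below 0, that is, a lower fitted level in ST14high, against 49.7% of the 13749 genes tested. Their median was -0.28, where the median over all genes tested was 0.002. In edgeR's quasi-likelihood test 0 of the 10 passed an adjusted p of 0.05, and 0.0% of all genes tested did. The smallest adjusted p among the 10 was 0.398, for Tap1. At an unadjusted p under 0.05 there were 3, Tap1, Psmb8 and Psmb9, where 9.56% of all genes tested stood at that level. All 3 were lower in ST14high, as were 2.68% of all genes tested, and 0 were higher, as were 6.89%. DESeq2's Wald test called 0 of the 10. Over all genes with an adjusted p it called 1.72%, and 0.103% as lower in ST14high. In all 10 genes the populations overlapped, while they were apart in 6.42% of all genes tested, and apart with ST14high lower in 2.33%.

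Depth ranged from 6398307 counts in ST14low replicate 3 to 42769988 in ST14high replicate 3, with 1 transcript row kept per symbol. Levels are given as CPM, the count of a gene per 1000000 counts of its library, on library sizes adjusted by TMM factors. ST14high replicate 1 stood out in marker genes. It had the highest sums of 12 pancreatic acinar genes (10416 CPM, where the other libraries lay between 4.94 and 1515) and of 18 genes of mesothelium, fibroblasts and stellate cells (3745 CPM, where the others lay between 465 and 1276). Its duct cell genes summed to 15709 CPM, the lowest of the 8 libraries, the highest being 27212. Most of these sums was Spp1, at 8586 CPM in ST14high replicate 1 and between 15060 and 21603 CPM in the other libraries. The order of the sums therefore rests largely on that 1 gene. Cdh1, the next most abundant, was at 2096 CPM in ST14high replicate 1, within the range of the other libraries (1879 to 2812 CPM). All 14 duct markers passed the filter on low counts, with 7 higher and 7 lower in ST14high, and Spp1 (osteopontin), the most abundant of them, averaged 15998 CPM in ST14high against 18614 in ST14low.

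**Figure D1:**
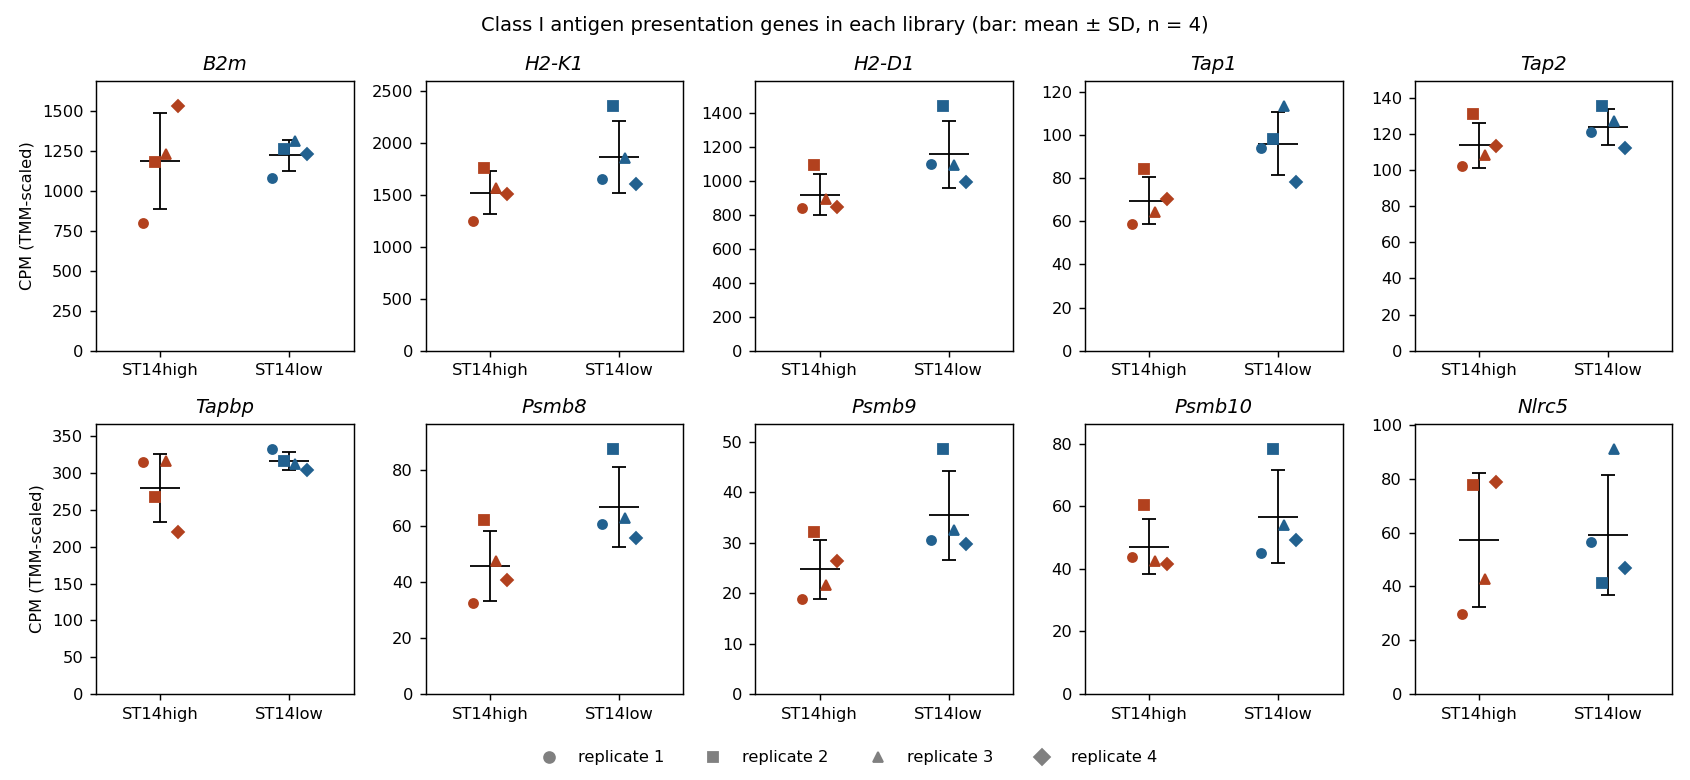
CPM (vertical axes, from 0) of the 10 genes in each library, with ST14high in red and ST14low in blue; the symbol shape gives the replicate number and bars show mean ± SD over 4 libraries. In every panel the populations overlap; ST14high replicate 1 is lowest in 8 panels and ST14low replicate 2 highest in 6.

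B2m and the heavy chains form the class I molecule at the cell surface. B2m, the invariant light chain, was at 795, 1181, 1231 and 1531 CPM in ST14high replicates 1 to 4 and at 1082, 1259, 1310 and 1231 CPM in ST14low. ST14high held both the lowest and the highest library, and the ST14low libraries lay between them. The means were 1185 ± 302 CPM in ST14high against 1220 ± 97.9 CPM in ST14low (SD, n = 4), giving a log2 fold change of ST14high over ST14low, or log2 ratio, of -0.04 (SE 0.20, edgeR adjusted p = 0.959). Without ST14high replicate 1 its log2 ratio was 0.11.

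H2-K1 and H2-D1 encode the classical heavy chains that hold the peptide. H2-K1 was at 1251, 1759, 1568 and 1510 CPM in ST14high and at 1650, 2359, 1858 and 1602 CPM in ST14low. ST14high replicate 1 was lowest and ST14low replicate 2 highest, with the other 6 libraries between 1510 and 1858 CPM. H2-D1 followed the same pattern, at 839, 1093, 896 and 848 CPM in ST14high and at 1099, 1444, 1092 and 994 CPM in ST14low. Only ST14high replicate 2 reached into the ST14low range for H2-D1. The log2 ratios were -0.30 (SE 0.18) for H2-K1 and -0.33 (SE 0.16) for H2-D1, with edgeR adjusted p of 0.609 and 0.553. Across the 8 libraries the 2 genes had a Pearson r of 0.94, given as a description since they share libraries and could share reads.

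The TAP transporter is a dimer of TAP1 and TAP2, and tapasin, encoded by Tapbp, bridges it to the heavy chain. Tap1 was at 59.0, 84.4, 64.5 and 70.3 CPM in ST14high and at 93.9, 98.3, 114 and 78.4 CPM in ST14low. Of the ST14high libraries only replicate 2 exceeded the lowest ST14low library, replicate 4. The means were 69.5 ± 10.9 and 96.1 ± 14.5 CPM (SD, n = 4), giving a log2 ratio of -0.46 (SE 0.16, 95% interval -0.82 to -0.11, edgeR adjusted p = 0.398). The exact two-sided permutation p was 0.0571, where the smallest that 4 against 4 libraries can give is 0.0286. Tap2 differed less, at 102, 131, 108 and 113 CPM in ST14high and at 121, 136, 127 and 112 CPM in ST14low. Its log2 ratio was -0.12 (SE 0.12), and its highest library exceeded its lowest by a factor of 1.32, the smallest such factor among the 10 genes.

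Tapbp stood apart from the other loading genes in its pattern. It was at 315, 268, 316 and 219 CPM in ST14high and at 333, 317, 312 and 304 CPM in ST14low. ST14high replicates 1 and 3 lay within the ST14low range, and replicates 2 and 4 below it. The ST14low libraries varied little, with a coefficient of variation of 3.90%, against 16.5% in ST14high. Its log2 ratio was -0.18 (SE 0.14, edgeR adjusted p = 0.697). For B2m, Tap2 and Tapbp the 95% interval of the fold change excluded a 1.5-fold difference in either direction, and for the other 7 genes it did not.

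Psmb8, Psmb9 and Psmb10 encode the catalytic subunits that turn a standard proteasome into an immunoproteasome. Psmb8 was at 32.5, 62.0, 47.5 and 40.6 CPM in ST14high and at 60.5, 87.4, 62.8 and 55.5 CPM in ST14low. Psmb9 was at 18.8, 32.2, 21.6 and 26.3 CPM in ST14high and at 30.6, 48.7, 32.6 and 29.8 CPM in ST14low. For both genes only ST14high replicate 2 reached the ST14low range, ST14low replicate 2 was highest and ST14high replicate 1 lowest. Their log2 ratios were -0.54 (SE 0.22) and -0.52 (SE 0.22), the farthest from 0 among the 10 genes, with edgeR adjusted p of 0.49 and 0.51. Psmb9 had the fewest reads, and in the shallowest library its 211 counts gave 32.6 CPM with an exact 95% Poisson interval of 28.3 to 37.3 CPM, which covers counting error only. Psmb10 was at 43.8, 60.2, 42.6 and 41.5 CPM in ST14high and at 45.1, 78.3, 54.0 and 49.2 CPM in ST14low. Replicate 2 was highest in each population, and 3 of 4 ST14high libraries lay below all of ST14low. Its log2 ratio was -0.27 (SE 0.21, edgeR adjusted p = 0.688).

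Nlrc5 encodes the transactivator of class I genes. It was at 29.7, 77.7, 42.6 and 78.7 CPM in ST14high and at 56.6, 41.4, 91.2 and 46.9 CPM in ST14low. High and low libraries were mixed between the populations, and ST14low replicate 2, highest for 6 of the other genes, was the second lowest for Nlrc5. Its log2 ratio was -0.04 (SE 0.35, edgeR adjusted p = 0.978), and it varied most, by a factor of 3.07 between its highest and lowest library. Without ST14low replicate 3 its log2 ratio was 0.24, and without ST14high replicate 1 it was 0.18 (edgeR adjusted p = 0.776 and 0.86).

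**Figure D2:**
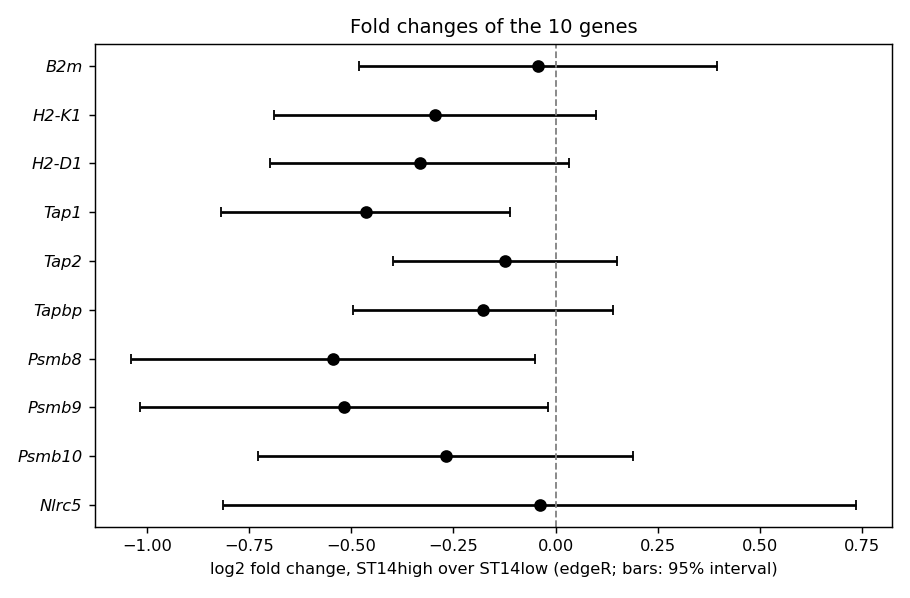
Log2 fold change of ST14high over ST14low (horizontal axis) for each of the 10 genes (vertical axis), with 95% intervals from edgeR; the dashed line marks no difference. All 10 points lie below 0; the intervals of Tap1, Psmb8 and Psmb9 do not reach 0, and no gene passed after adjustment over all genes.

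The count of 3 genes at an unadjusted p under 0.05 depended on single libraries and on the tool. It was 4 in DESeq2's Wald test, and ran from 1 to 5 in DESeq2 without 1 library. It was 0 in limma's voom fit with quality weights, and 0 in edgeR without ST14high replicate 1 and ST14low replicate 3 together, so that Tap1 did not stand at that level there either. Its log2 ratio was -0.28 in the voom fit and -0.31 without those 2 libraries (adjusted p = 0.552 in limma and 0.466 in edgeR). With 1 library left out in edgeR, the count was 1 without ST14high replicate 1, 3 or 4 or without ST14low replicate 2, in each case Tap1. It was 2 without ST14low replicate 3, 4 without ST14high replicate 2, and 3 without ST14low replicate 1 or 4. The median log2 fold change of the 10 genes was -0.19 without ST14low replicate 2, -0.24 without ST14high replicate 1 and -0.39 without ST14high replicate 2. It was below 0 in every fit with 1 library left out.

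The same libraries were lowest and highest for most of the 10 genes. ST14high replicate 1 was the lowest library for 8 of the 10 genes, where 18.6% of all genes tested were lowest there. ST14low replicate 2 was the highest for 6 of the 10, against 23% of all genes tested. The exceptions at the low end were Tapbp and Psmb10, lowest in ST14high replicate 4. At the high end they were B2m, highest in ST14high replicate 4, Tapbp, highest in ST14low replicate 1, and Tap1 and Nlrc5, highest in ST14low replicate 3. Of the 45 pairs among the 10 genes 43 had a Pearson r above 0 over the 8 libraries, with a median of 0.56. H2-K1 with Psmb8 had an r of 0.96, and Tap1 with Tap2 one of 0.86, while Tapbp with B2m had an r of -0.55 and with Nlrc5 one of -0.51. Nlrc5 had an r of 0.28 with H2-K1, 0.56 with Tap1 and 0.68 with B2m. These describe the same 8 libraries and were not tested.

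**Figure D3:**
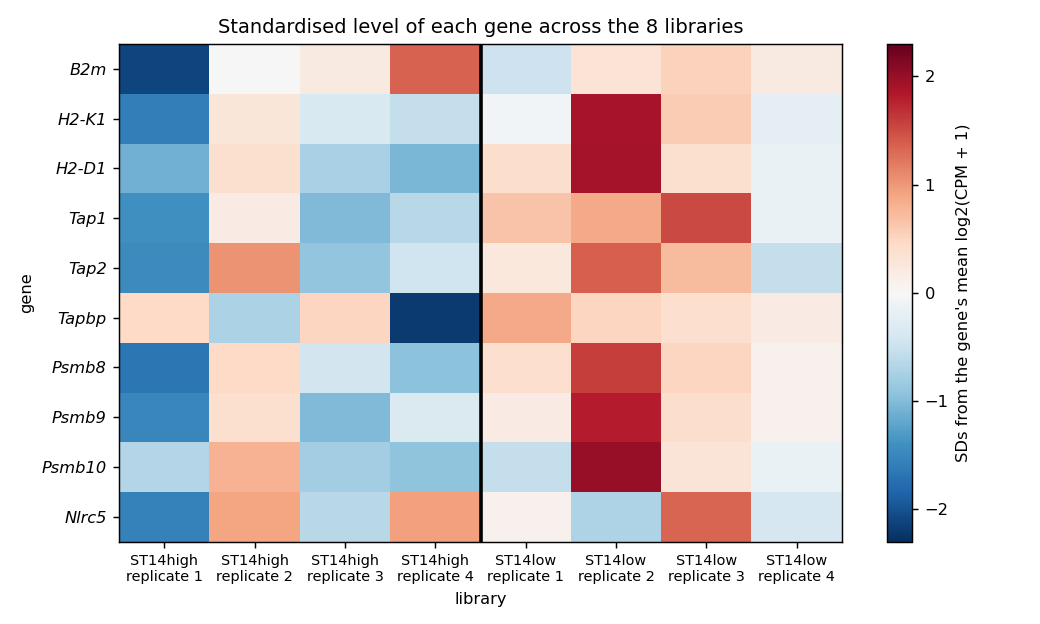
Level of each gene (rows) in each library (columns), in SDs from that gene's mean log2(CPM + 1); red is above and blue below the mean, and the black line divides ST14high from ST14low. The column of ST14high replicate 1 is blue except for Tapbp, and that of ST14low replicate 2 is red except for Nlrc5.

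Among 10285 other genes with a mean of at least 10 CPM, those most like the mean standardised level of the 10 genes over the 8 libraries were H2-Q7 (r = 0.96), H2-Q9 (r = 0.96), Bik (r = 0.95), Apof (r = 0.95) and Arl8b (r = 0.94). H2-Q7 and H2-Q9 are class I genes whose rows cover nearly the same stretch of chromosome 17, so they count largely the same reads. H2-Q7 was at 50.3 ± 19.5 CPM in ST14high and at 72.6 ± 19.9 CPM in ST14low (SD, n = 4), giving a log2 ratio of -0.53 (edgeR adjusted p = 0.601). It was chosen for following the 10 genes, so its direction is not separate from theirs. Other class I chains could also share reads with H2-K1 and H2-D1, as given above.

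Ratios within a library do not depend on the scaling between libraries, and 6 of them, chosen after the values were seen, were compared on the RPKM values (reads scaled by length and depth) of the deposited tables. Tap1 to Tap2 was 0.464, 0.518, 0.480 and 0.5004 in ST14high and 0.624, 0.583, 0.720 and 0.564 in ST14low. The 4 ST14high libraries lay below all 4 ST14low libraries, by a log2 difference of 0.34 in the mean (-0.34, and between -0.38 and -0.27 with any 1 library left out). The exact permutation p was 0.0286, the smallest possible, and 0.171 after Benjamini-Hochberg adjustment over the 6 ratios, so the ratio failed the correction. Of the 50-base windows 6.47% of Tap1 and 12.6% of Tap2 also occur in other genes, as given above. For the CPM of single genes the populations were apart, in either direction, in 6.42% of all genes tested. The share among ratios of gene pairs was not computed.

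Each immunoproteasome subunit replaces 1 standard subunit: PSMB8 takes the place of PSMB5, PSMB9 of PSMB6 and PSMB10 of PSMB7. The Psmb8 to Psmb5 ratio was 1.02 ± 0.147 in ST14high and 1.38 ± 0.287 in ST14low (SD, n = 4; exact permutation p = 0.0571, adjusted 0.171). The Psmb9 to Psmb6 ratio was 0.382 ± 0.105 and 0.523 ± 0.108 (exact permutation p = 0.114, adjusted 0.229). Psmb10 to Psmb7 was 0.521 ± 0.0889 and 0.506 ± 0.125 (exact permutation p = 0.83, also after adjustment). The populations overlapped in all 3 ratios. In ST14low replicate 2, the highest library for the 3 immunoproteasome genes, the standard subunits were also highest, with Psmb5 at 62.8 CPM, where the other 7 libraries lay between 26.4 and 38.5. The Psmb8 to Psmb5 ratio of that library, 1.06, was the lowest of ST14low.

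The populations also overlapped in both heavy chain ratios. H2-K1 to H2-D1 was 1.77 ± 0.143 in ST14high and 1.72 ± 0.0887 in ST14low (exact permutation p = 0.6, adjusted 0.72). H2-K1 to B2m was 0.705 ± 0.139 and 0.810 ± 0.131 (exact permutation p = 0.371, adjusted 0.557), with 0.522 in ST14high replicate 4, the lowest library.

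**Figure D4:**
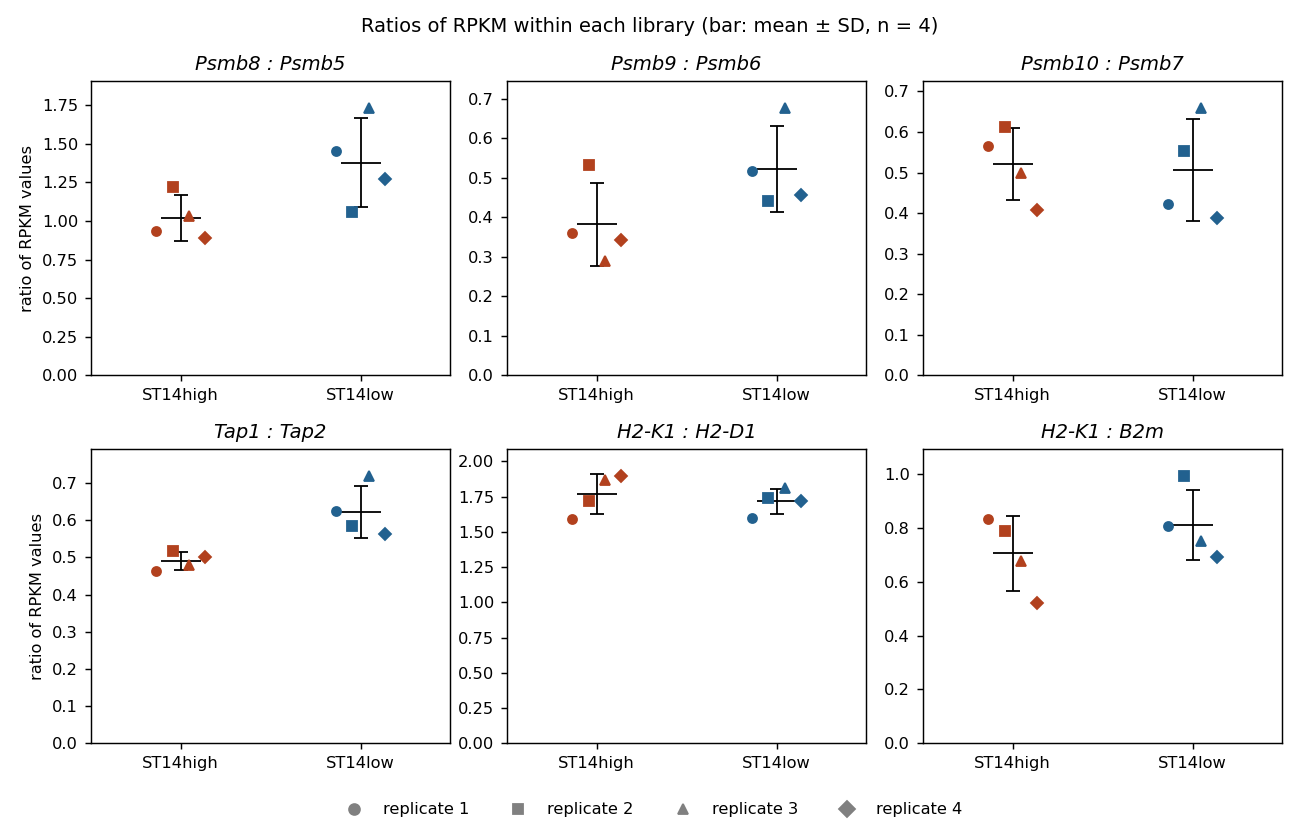
Ratios of RPKM values within each library (vertical axes, from 0) for 6 gene pairs, with ST14high in red and ST14low in blue; the symbol shape gives the replicate number and bars show mean ± SD over 4 libraries. Only in the Tap1 to Tap2 panel do all ST14high libraries, 0.464 to 0.518, lie below all ST14low libraries, 0.564 to 0.720.

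Levels of different genes were compared per length, as RPKM averaged over the 8 libraries. B2m was highest at 1681 RPKM, then H2-K1 at 1252 and H2-D1 at 719, with overlapping ranges over libraries between each neighbour. Tapbp followed at 121 RPKM, with a range that met neither H2-D1 above nor Tap2 below. Tap2 (58.1 RPKM), Psmb8 (56.1), Psmb10 (53.0), Psmb9 (51.3) and Tap1 (32.6) formed a group in which each neighbour's range overlapped the next. Nlrc5 was lowest at 11.4 RPKM, ranging from 5.25 to 17.9, below every library of Tap1.

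Other class I and class I-like chains lay in the same direction by their median, with exceptions. Of 21 genes listed, 20 were matched and 15 tested: 12 lay lower and 3 higher in ST14high, the median being -0.22, and edgeR called 0. H2-Q4, a Qa chain listed in the tables under the older symbol H2-Gs10 and matched by its RefSeq accession, was the most abundant, and did not share the pattern of H2-K1. H2-Gs10 was at 227, 250.3, 223 and 224 CPM in ST14high and at 228, 192, 273 and 213 CPM in ST14low, giving a log2 ratio of 0.03 (SE 0.14, edgeR adjusted p = 0.957). It was lowest in ST14low replicate 2, the library in which H2-K1 was highest. H2-T23, which encodes the Qa-1 chain that presents leader peptides to NK cell receptors, was at 115 ± 20.3 and 149 ± 22.1 CPM (SD, n = 4), giving a log2 ratio of -0.37 (edgeR adjusted p = 0.518). Fcgrt, the class I-like chain of the neonatal Fc receptor, was the 1 member at an unadjusted p under 0.05 and is named for that. It was at 89.6, 101, 107 and 99.2 CPM in ST14high and at 114, 163, 113 and 115 CPM in ST14low. Its log2 ratio was -0.35 (edgeR adjusted p = 0.499). The populations did not overlap, which held with ST14high lower for 2.33% of all genes tested.

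Genes of the standard proteasome lay mostly lower in ST14high as well. Of 18 genes of its core, its PA28 activators and its assembly, 16 were lower and 2 higher in ST14high, the median being -0.31 on the log2 scale. EdgeR called 0, and 4 were lower at an unadjusted p under 0.05. Psme1 and Psme2, of the PA28 activators, are also counted among the interferon-induced genes below. The alpha ring subunit gene Psma6, chosen for its unadjusted p, was at 74.8, 93.0, 81.4 and 82.9 CPM in ST14high and at 109, 157, 103 and 114 CPM in ST14low, giving a log2 ratio of -0.54 (edgeR adjusted p = 0.302). The most abundant of the list, Psmb4, a structural beta subunit, and Psme3, a nuclear activator subunit, had log2 fold changes of -0.36 and -0.16. Genes of peptide trimming and folding were balanced, with 6 higher and 8 lower of 14, a median of -0.04 and 0 called. Calr (calreticulin, a chaperone of the loading complex) was at 662 ± 114 CPM in ST14high and at 639.6 ± 167 CPM in ST14low. Hspa5 (BiP, the chief chaperone of the endoplasmic reticulum) was at 809.5 ± 341 and 789.7 ± 114 CPM (SD, n = 4).

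Regulators of class I genes and interferon-induced genes did not share 1 direction. Of 27 transcription factors and interferon signalling genes 15 were higher and 12 lower in ST14high, the median being 0.02 on the log2 scale and 0 called by edgeR. Irf1, a factor that interferon induces and that acts on the Tap1 and Psmb9 promoter, was at 449.5, 203, 172 and 211 CPM in ST14high and at 225, 178, 219 and 205 CPM in ST14low. ST14high replicate 1, lowest for Tap1 and Psmb9, was the highest for Irf1. Jak1, a kinase of interferon receptors, was at 217 ± 28.7 and 237 ± 36.6 CPM (SD, n = 4). Stat2 was the 1 gene of these 27 at an unadjusted p under 0.05 and is named for that. It was higher in ST14high, with a log2 fold change of 0.33 (edgeR adjusted p = 0.502). Of 33 interferon-induced genes 13 were higher and 20 lower, with a median of -0.12 and 0 called. Gbp2 and Gbp5, GTPases induced by interferon-gamma, were higher at an unadjusted p under 0.05 and are named for that, with log2 fold changes of 0.84 and 1.66 (edgeR adjusted p = 0.399 and 0.421). Both were highest in ST14high replicate 1, Gbp2 at 74.5 CPM and Gbp5 at 10.9, where the other ST14high libraries lay between 35.0 and 46.0 CPM for Gbp2 and between 2.69 and 5.79 for Gbp5. Dtx3l, a ubiquitin ligase, was the 1 gene of the list lower at an unadjusted p under 0.05, with a log2 fold change of -0.39 (edgeR adjusted p = 0.459). The most abundant, Trim25 and Irgm1, had log2 fold changes of -0.19 and -0.31.

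MHC class II genes, which present to CD4 T cells and are carried mainly by professional antigen-presenting cells, had all 8 tested members lower in ST14high, with a median of -0.89 and 0 called by edgeR. Their summed level ran from 125 to 340.1 CPM in ST14high and from 211 to 632 CPM in ST14low. The highest was ST14low replicate 3, the library in which Tap1 and Nlrc5 were highest. The most abundant, Cd74 and H2-Ab1, had log2 fold changes of -0.72 and -0.97 (edgeR adjusted p = 0.544 and 0.541). H2-Aa, an alpha chain of class II, was the 1 gene of this list at an unadjusted p under 0.05, and DESeq2 called 0 genes of this list and of the pathway lists above.

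Other cell types moved with the class I genes in part. The 25 leukocyte and macrophage genes summed to 244 to 410.0 CPM in ST14high and to 422 to 1063 CPM in ST14low, without overlap. Csf1r, a receptor of macrophages, was 161 of the 410.0 CPM in ST14high replicate 1. It was 199 of the 422 CPM in ST14low replicate 4, so the lack of overlap depends on this 1 gene. The highest sums were those of ST14low replicate 3, at 1063, and replicate 2, at 832. These are the libraries in which 8 of the 10 class I genes were highest. Within ST14high the order differed. Replicate 1, lowest for most class I genes, had the highest leukocyte sum there, at 410.0 CPM. Replicate 2, with the highest class I sum of ST14high (4749 CPM), was at 287 CPM. Of the 21 leukocyte and macrophage genes tested 20 were lower in ST14high, with a median of -1.75 on the log2 scale. EdgeR called 0, with 3 lower at an unadjusted p under 0.05, and DESeq2 called 1. Ptprc (CD45, the common leukocyte antigen) was at 6.57, 1.67, 0 and 6.47 CPM in ST14high and at 3.92, 8.66, 17.6 and 8.03 CPM in ST14low. In ST14high replicate 3, 12 of the 25 leukocyte genes were at 0 counts, Ptprc among them, and Csf1r made up 235.5 of the 244 CPM. The 16 endothelial genes, all lower in ST14high, summed to 59.4 to 1324 CPM there and to 405 to 1574 CPM in ST14low. ST14high replicate 1, lowest for most class I genes, was the second highest at 1324 CPM, and ST14high replicate 3 the lowest, with Pecam1 (CD31, the endothelial junction protein) at 0.401 CPM. There 1 of the 16 endothelial genes was at 0 counts, while Egfl7 was at 21.4 CPM, Gpr182 at 12.8 and Kdr at 9.66. ST14high replicate 3 had the lowest leukocyte and endothelial sums. H2-K1 stood at 1568 CPM there, B2m at 1231 and Tap1 at 64.5, all within the range of the other ST14high libraries. H2-K1, H2-D1, Tap1, Tap2, Psmb8, Psmb9 and Psmb10 lay there below every ST14low library. B2m, Tapbp and Nlrc5 lay within the ST14low range. The 10 hepatocyte genes (albumin and other liver secretory and metabolic genes) were all lower in ST14high. Their sum was lowest in ST14high replicate 1, at 5121 CPM, and highest in ST14low replicate 2, at 14490 CPM, as for most class I genes. The libraries between did not keep the class I order. ST14low replicate 3 had a hepatocyte sum of 8405 CPM and ST14high replicate 4 one of 12674 CPM. The 10 class I genes summed to 5053 CPM and 4479 CPM in these libraries. Of the 18 genes of mesothelium, fibroblasts and stellate cells 16 were higher in ST14high, 13 at an unadjusted p under 0.05 in edgeR and 8 by DESeq2's adjusted p. The part of leukocytes, endothelium and hepatocytes, or of the acinar and mesothelial RNA in ST14high replicate 1, in the difference between the populations was not tested. In these bulk samples fewer cells of a type and less RNA per cell cannot be told apart.

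**Figure D5:**
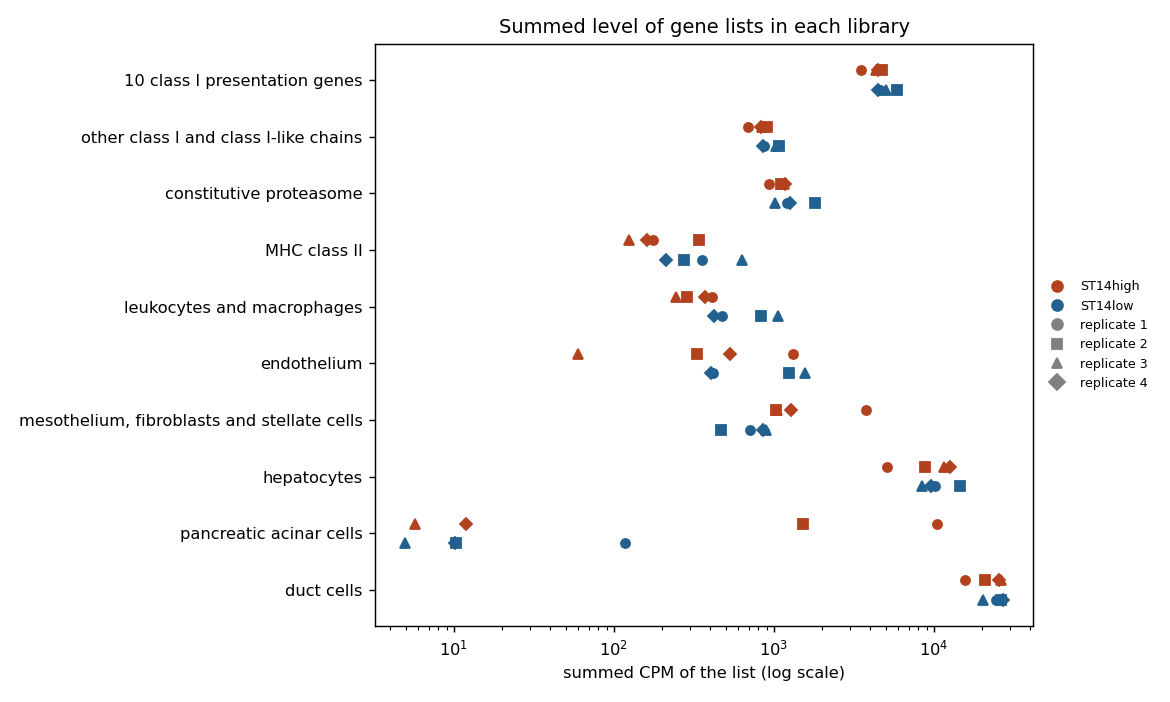
Summed CPM of gene lists (rows) in each library (log horizontal axis), with ST14high in red above and ST14low in blue below; the symbol shape gives the replicate number. The 10 class I presentation genes sum to 3486 to 4749 CPM in ST14high and to 4503 to 5868 CPM in ST14low. The leukocyte and macrophage sums do not overlap between the populations, which depends on Csf1r alone.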

How the data were processed

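The 8 RNA sequencing libraries, 4 of ST14high and 4 of ST14low, were grouped by the labels. The submitters' processing notes name CASAVA 1.8.2, Bowtie 1.0.0 and mm9 without their roles. Of the counting program, the annotation release and strand handling nothing is stated. Each of 26005 RefSeq transcript rows has, per the file headers, a raw read count, which the authors deposited unscaled, and an RPKM value, which the authors scaled by length and library size. The row with the largest summed count was kept for each of 20377 symbols.

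Counts were tested in R 4.3.3 with edgeR 4.0.16 (quasi-likelihood test, TMM factors, filterByExpr leaving 13749 genes, population as sole term), and p-values were adjusted over all genes tested by the Benjamini-Hochberg method at a threshold of 0.05. The SE is the log2 fold change over the root of the test statistic. Single genes, on log2(CPM + 1), and ratios were tested by exact two-sided permutation over 70 arrangements. The steps were also tested on simulated data. Every pair of libraries differed by more than counting noise (chi-square per degree of freedom 17.8 to 352 over 28 pairs).

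The 10 genes and the lists were chosen with earlier results of these data known. The rule for other genes named the 2 of highest mean CPM in each pathway list, any past the threshold, and the 5 most like the 10 genes; genes named for an unadjusted p and single markers were chosen after their values were seen. Alternatives were other scaling factors, filters, transcript rows and pseudocounts, DESeq2 1.42.0, limma 3.58.1, a replicate term and leaving out each library. Chosen after seeing the data were edgeR without 2 libraries together and DESeq2 without each library. Python 3.11.15 with pandas 2.3.3, scipy 1.17.1 and matplotlib 3.10.9 made the summaries and plots.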

Additional observations from a re-analysis of the deposited data

Results flagged for a closer look

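Within 1 population, 2 values lay far from the other 3 libraries (the gap to the nearest, over the range, passed the 95% critical value of Dixon's test for 4 samples). Psmb9 in ST14low replicate 2 was at 48.7 CPM, where the other ST14low libraries lay between 29.8 and 32.6 CPM. Psmb10 in ST14high replicate 2 was at 60.2 CPM, where the other ST14high libraries lay between 41.5 and 43.8 CPM. Of 20 groups examined, chance flags about 1 in 20.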

How the results depend on the processing

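Over 28 other settings the fold changes of H2-K1, H2-D1, Tap1, Tapbp, Psmb8 and Psmb9 stayed below 0, and 0 of the 10 genes passed an adjusted p of 0.05 in any of them; the smallest was 0.081, for Tap1 in DESeq2 without ST14high replicate 2. Of 280 values 13 lay above 0. In limma's voom fit Tap2 was at 0.013, Psmb10 at 0.040 and Nlrc5 at 0.18. With ST14high replicate 1 and ST14low replicate 3 both left out, B2m was at 0.14 and Nlrc5 at 0.46. Over the edgeR and DESeq2 fits without 1 library B2m ran from -0.20 to 0.11 and Nlrc5 from -0.24 to 0.24. The cause was not tested. The median of the 10 genes ran from -0.40 to -0.18 over those fits and was -0.11 in voom. Over all genes, edgeR called 0 (1315 at an unadjusted p under 0.05), DESeq2 234, edgeR with the replicate number as a block 2, and edgeR without ST14high replicate 1 and ST14low replicate 3 together 35; without 1 library the calls ran from 0 in edgeR to 367 in DESeq2, whose lowest was 150. Same-numbered libraries did not deviate together (correlation -0.123 to 0.076). This cannot decide whether the samples were paired, since other differences between libraries could hide a shared animal or sort, and the labels give no pairing. Pseudocounts of 0.1 and 5 moved no exact test across 0.05. Depth limits Psmb9 most.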
